A study of Homo sapiens with 19 samples.

Results

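The matrix metalloproteinases (MMPs), the ADAMTS proteases and the tissue inhibitors of metalloproteinases (TIMPs) were examined by RNA-seq in H1 human embryonic stem cells (hESCs) in which subunits of Polycomb repressive complex 2 (PRC2) had been deleted. The genes were taken by symbol and comprised 19 MMPs, 18 ADAMTSs and 4 TIMPs, together 41 of the 33382 genes listed. H1 is an established hESC line, and all cells were grown as hESCs in mTeSR1 medium on matrigel. Unmodified cells (WT H1) had 2 samples. Knockout lines of SUZ12 (SUZ12-/- H1), EED (EED-/- H1), EZH1 (EZH1-/- H1) and EZH2 (EZH2-/- H1) had 2 samples each, as did EZH2-/-/EZH1-/- H1, called the double knockout below, which was made by deleting EZH1 in EZH2-/- cells. A further line, H1-EED-/-/EED-OE, lacks endogenous EED and carries a lentiviral EED transgene that is transcribed with doxycycline (DOX). It gave 1 sample with DOX and 1 sample each at 8, 12, 16, 20, 24 and 28 days after DOX withdrawal, so that all 7 samples share the deletion and the transgene. The sample titles of a knockout line differ by clone or passage names. The study worked with 2 or more clones per gene, but it does not state whether the 2 RNA-seq samples of a line came from different clones. The p-values therefore measure the spread between these samples only. The SUZ12-/-, EED-/- and double-knockout lines are called PRC2-null here, because each lacks a core subunit or both catalytic subunits, and the other 3 lines are called PRC2-retaining.

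PRC2 places the repressive mark H3K27me3 on histone H3 through EZH2 or EZH1, and EED and SUZ12 are needed for its activity. MMPs are zinc endopeptidases that cleave collagens, basement membrane and other extracellular proteins, are made as inactive proenzymes, and are either secreted or held at the cell surface (the membrane-type MMPs). ADAMTSs are secreted zinc proteases with thrombospondin repeats, some of which cut proteoglycans such as aggrecan and versican while others process procollagens, and TIMPs bind and inhibit these enzymes. Mesenchymal, endothelial and invading cells and macrophages are known to use these proteases, whereas hESCs grow as compact epithelial colonies.

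Part of the MMP family lies in a gene cluster on chromosome 11, at 102520508 to 102955732 in GRCh38 with GENCODE release 44, a span of 435.2 kb with 9 protein-coding MMP genes. RefSeq promoter windows of 250 bases before to 50 bases after the start (GRCh38.p14) were at hand for 22 of the 41 genes. The AP-1 letters TGANTCA and the letters TATAAA, which cannot overlap each other, were searched on both strands. The AP-1 letters were in 3 of the 22 windows, those of MMP7, MMP10 and ADAMTS12, and in 7.7% of all 35116 promoters. TATAAA was in 5 of the 22 and in 11.5% of all. The last 100 bases before the start of these 3 genes are shown, with the letters that matched in capitals. They were picked for the match and for higher transcripts in the PRC2-null lines. Beside them stand those of MMP8, a cluster gene that stayed at or near 0 TPM. The cluster genes MMP1, MMP3, MMP12 and MMP13 had no window at hand and were not searched. The windows of MMP11, MMP14, TIMP1, TIMP3, ADAMTS6 and ADAMTS18, which rose in each PRC2-null line, did not hold the AP-1 letters.
MMP7, chr11:102530748-102530847, minus strand: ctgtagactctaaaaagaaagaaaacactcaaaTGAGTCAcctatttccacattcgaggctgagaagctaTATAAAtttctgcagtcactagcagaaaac
MMP10, chr11:102780629-102780728, minus strand: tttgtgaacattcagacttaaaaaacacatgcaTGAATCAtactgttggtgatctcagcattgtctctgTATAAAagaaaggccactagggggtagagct
ADAMTS12, chr5:33891991-33892090, minus strand: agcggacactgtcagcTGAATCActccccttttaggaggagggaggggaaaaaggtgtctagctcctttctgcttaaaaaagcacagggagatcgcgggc
MMP8, chr11:102724955-102725054, minus strand: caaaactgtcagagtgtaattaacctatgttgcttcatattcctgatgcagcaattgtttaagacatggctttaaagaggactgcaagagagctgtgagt
Counted from -1 at the base before the start, MMP7 and MMP10 shared an AP-1 match at position -67, with TATAAA at -30 and -31. In ADAMTS12 the AP-1 match began at -84. The MMP8 stretch held neither set of letters, although TATAAA occurred at -110. A match describes the letters only.

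Values are in TPM, the share of transcripts scaled to a fixed total. They are divided by transcript length and can therefore be compared between genes. TPM summed to 999999.2 to 1000001.0 per sample by construction and keep no read depth, and 14389 to 17043 genes had at least 1 TPM. The deletions removed a critical domain and not the whole gene, so that the TPM of a targeted gene is no check of the labels. EED was at 14.25 to 22.36 TPM in EED-/- H1 and 17.3 to 21.96 in WT H1, SUZ12 at 20.76 to 22.94 in SUZ12-/- H1 and 25.21 to 27.89 in WT H1, and EZH1 at 12.49 to 17.07 in EZH1-/- H1, 6.78 to 9.37 in the double knockout and 13.71 to 14.29 in WT H1. EZH2 was at 22.02 to 46.94 TPM in EZH2-/- H1 and 20.03 to 31.28 in the double knockout, below the 54.55 to 58.89 of WT H1, but it was also below WT H1 in EED-/- and SUZ12-/- H1, at 13.96 to 33.06. In H1-EED-/-/EED-OE cells EED was at 108.54 TPM with DOX and at 12.64 to 31.56 after withdrawal. The summed TPM of 6 pluripotency markers (POU5F1, NANOG, SOX2, LIN28A, DNMT3B and TDGF1) was 5261.76 to 6523.56 in the PRC2-retaining samples and 129.16 to 438.82 in the PRC2-null samples, so that the label human embryonic stem cell was not borne out by these markers in the PRC2-null lines. All 6 mesenchyme markers were at 1 TPM or more in each PRC2-null sample, with sums of 2500.75 to 20612.51 against 34.2 to 55.78, and all 6 endoderm markers were as well, with 879.4 to 16901.12 against 4.72 to 14.8. All 5 endothelial markers were at 1 TPM or more there too, but 3 of them were so in every PRC2-retaining sample as well. The endothelial sums overlapped, at 52.64 to 505.97 against 46.1 to 145.16. Of the 5 blood markers, 2 were at 1 TPM or more in each PRC2-null sample, with sums of 47.52 to 210.31 against 1.15 to 2.33. Among the endoderm markers TTR was listed at 0 in all PRC2-retaining samples. The sums of the pluripotency, mesenchyme, endoderm and blood lists separated PRC2-null from PRC2-retaining samples, whereas the endothelial sums did not. That separation runs along with every difference between PRC2-null and PRC2-retaining lines below, and the part of any list in it was not tested. In bulk RNA, more cells of a type and more RNA per cell cannot be told apart.

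Interstitial collagenase MMP1, gelatinase A MMP2, its membrane-bound activator MMP14, stromelysin MMP10, MMP11, MMP28, the inhibitors TIMP1, TIMP2 and TIMP3, and ADAMTS6, ADAMTS9, ADAMTS12 and ADAMTS18 rose in each of the 3 PRC2-null lines. The membrane-type MMP17 and MMP25 and the proteoglycanase ADAMTS8 fell in each. Of the 41 genes, 37 passed the filter of at least 1 TPM in 2 of the 12 samples. The remaining MMP3, MMP8, MMP13 and MMP21 were at 0.33 TPM or less in all 12 samples. A gene was called at a limma adjusted p of at most 1% and a fold of at least 3 on log2(TPM + 1). Where a call is said below to be lost without a sample, either the adjusted p rose above 1% or the fold came under 3. Among the 37, 21 rose and 4 fell in EED-/- H1 against WT H1, where 16.2% and 6.09% of all 19100 genes tested did, and the median log2 difference was 2.05 against 0.36 over all genes. In SUZ12-/- H1, 16 rose and 3 fell (14.5% and 5.21% of all genes), with medians of 1.19 and 0.22. In the double knockout, 17 rose and 5 fell (11.6% and 5.66%), with medians of 1.24 and 0.19. Between the means of the 3 PRC2-null and the 3 PRC2-retaining lines, 19 rose and 4 fell (13.5% and 5.09%), with medians of 1.63 and 0.29. Genes that passed the filter only through lines in which they are high had to differ, so that these counts describe the family. Because the median of all genes was itself above 0, TPM scaled by median ratios moved that median to between 0.06 and 0.07 in these 4 comparisons, and under it 8 of 102 calls made over all comparisons were lost and none turned. Without regard to a test, 18 of the 37 genes had all 6 PRC2-null samples above all 6 PRC2-retaining samples, and 4 had all below, where 24.2% and 13.3% of all genes did. By line, 13 of the 37 were called higher in all 3 lines, 5 in 2 and 5 in 1, 3 were called lower in all 3, 1 in 2 and 1 in 1, and 9 were called in none. Over all genes tested these shares were 7.82%, 4.81% and 9.27% higher, 3.4%, 2.02% and 2.74% lower, and 70.0% in none.

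**Figure D1:**
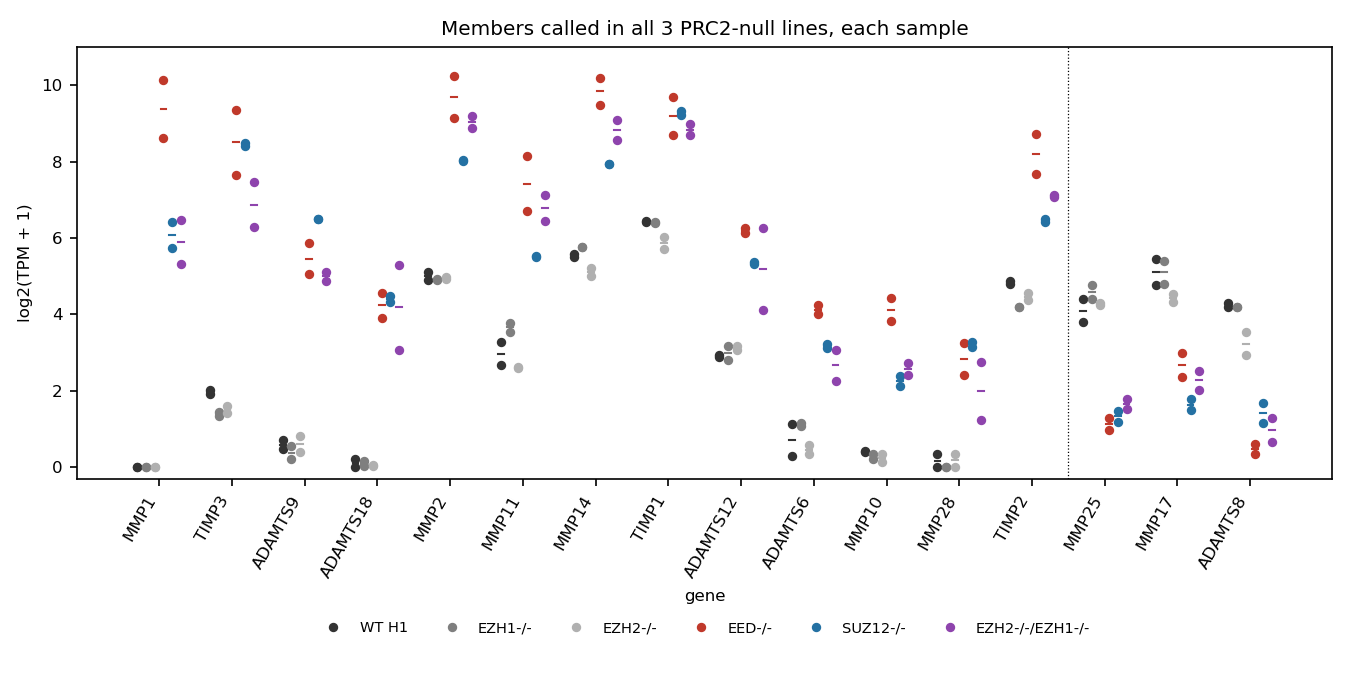
Level of the 16 genes called in all 3 PRC2-null lines, as log2(TPM + 1), with 1 point per sample and a bar at the mean of the 2 samples of a line. The 13 genes left of the dotted line had all 6 PRC2-null samples (red, blue and purple) above the 6 PRC2-retaining samples (black and greys), and MMP17, MMP25 and ADAMTS8 on the right had all below.

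**Figure D2:**
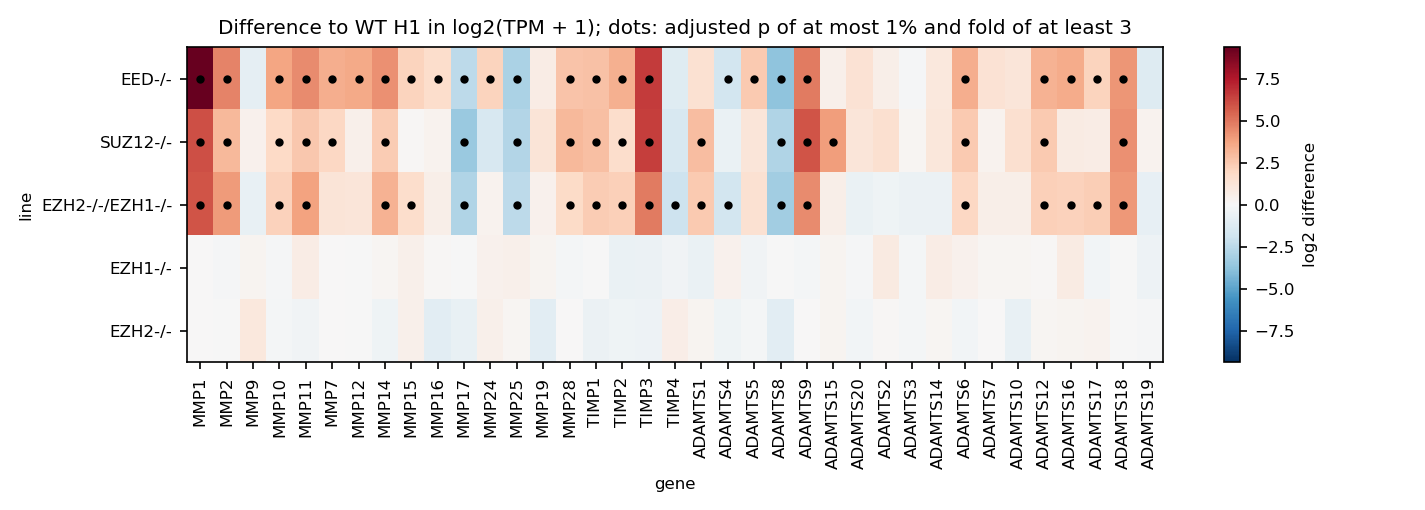
Difference to WT H1 in log2(TPM + 1) for the 37 genes tested, with knockout lines as rows and genes as columns. A dot marks a call, and no dot stands in the rows of EZH1-/- H1 and EZH2-/- H1.

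Of the 3 collagenases, which cut fibrillar collagen, only MMP1 passed the filter. MMP1 was at 0 and 0 TPM in WT H1, 0 and 0 in EZH1-/-, 0 and 0 in EZH2-/-, 1122 and 395 in EED-/-, 84.4 and 52.8 in SUZ12-/- and at 87.2 and 39.2 in the double knockout. It was listed at 0 in all 6 PRC2-retaining samples and at 39.2 TPM or more in each PRC2-null sample. A set of 15 genes that every cell uses was above 0 in all samples. Since these were at 5.17 TPM or more, they do not show whether a transcript at a low level would be listed above 0. Against WT H1 the log2 difference was 9.38 in EED-/-, 6.08 in SUZ12-/- and 5.90 in the double knockout (SE 0.48 each, largest adjusted p = 6.81e-06). Since these differences start from 0, they depend on the pseudocount of 1. MMP8 and MMP13 did not exceed 0.13 TPM in any of the 12 samples.

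The gelatinase MMP2, which degrades denatured collagen and basement membrane collagen, was already present in hESCs. MMP2 was at 28.97 and 33.2 TPM in WT H1, 28.9 and 29.3 in EZH1-/-, 30.5 and 29.4 in EZH2-/-, 1203 and 566 in EED-/-, 261 and 259 in SUZ12-/- and at 579.5 and 471 in the double knockout. The PRC2-retaining samples lay between 28.9 and 33.2 TPM and no PRC2-null sample was below 259 TPM. On the log2 scale it differed from WT H1 by 4.69 in EED-/-, 3.03 in SUZ12-/- and 4.03 in the double knockout (SE 0.28 each, largest adjusted p = 1.19e-05), which corresponds to 28.4-fold, 8.36-fold and 16.9-fold higher mean TPM. The other gelatinase, MMP9, is known from inflammatory and invasive cells. MMP9 was at 2 to 9.2 TPM in the PRC2-retaining and 1.35 to 5.91 TPM in the PRC2-null samples, overlapped between them and was called in no line. Part of its exons (18.4%) is shared with the antisense gene SLC12A5-AS1, and the library kit does not mark strand, so that reads of the 2 genes cannot be told apart there.

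The stromelysins cleave proteoglycans and fibronectin and activate other MMPs. MMP10 (stromelysin-2) was at 0.31 and 0.33 TPM in WT H1, 0.17 and 0.27 in EZH1-/-, 0.09 and 0.27 in EZH2-/-, 20.6 and 13.1 in EED-/-, 3.39 and 4.21 in SUZ12-/- and at 4.3 and 5.59 in the double knockout. No PRC2-retaining sample exceeded 0.33 TPM and no PRC2-null sample was below 3.39 TPM. Its log2 difference to WT H1 was 3.73 in EED-/-, 1.86 in SUZ12-/- and 2.16 in the double knockout (SE 0.28 each, largest adjusted p = 0.000349). MMP11 (stromelysin-3), which is activated inside the cell and is typical of stromal cells, was at 8.67 and 5.4 TPM in WT H1, 10.7 and 12.7 in EZH1-/-, 5.2 and 5.08 in EZH2-/-, 282 and 103 in EED-/-, 44.2 and 45.5 in SUZ12-/- and at 138 and 85.8 in the double knockout. The ranges did not overlap. For MMP11 the log2 difference to WT H1 was 4.45 in EED-/-, 2.54 in SUZ12-/- and 3.81 in the double knockout (SE 0.41 each, largest adjusted p = 0.000507). MMP3 (stromelysin-1) reached at most 0.33 TPM.

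Matrilysin MMP7 is an epithelial protease and MMP12 is the elastase of macrophages. MMP7 was at 0 and 0 TPM in WT H1, 0 and 0 in EZH1-/-, 0 and 0 in EZH2-/-, 9.3 and 10.2 in EED-/-, 2.79 and 2.84 in SUZ12-/- and at 2.31 and 0.69 in the double knockout. It was thus listed at 0 in all PRC2-retaining samples and highest in EED-/- H1. The difference of MMP7 to WT H1 was 3.43 in EED-/- and 1.93 in SUZ12-/- (SE 0.30 each, largest adjusted p = 0.000411), whereas the difference of 1.24 in the double knockout was not called (adjusted p = 0.00704). MMP12 was at 0 and 0.06 TPM in WT H1, 0 and 0 in EZH1-/-, 0 and 0 in EZH2-/-, 17.5 and 7.25 in EED-/-, 0.35 and 0.53 in SUZ12-/- and at 1.08 and 1.56 in the double knockout. Both EED-/- samples were at 7.25 TPM or more and the other PRC2-null samples at 0.35 to 1.56. The log2 difference to WT H1 was 3.59 in EED-/- (SE 0.34, adjusted p = 1.13e-05), and it was not called in SUZ12-/- H1 (0.48, adjusted p = 0.27) or the double knockout (1.16, adjusted p = 0.0171). The call of MMP12 over the 3 PRC2-null lines together was lost without EED-/- replicate 1 (log2 difference 1.58, adjusted p = 6.46e-06). Along the chromosome 11 cluster, MMP7, MMP10, MMP1 and MMP12 thus had every PRC2-null sample above every PRC2-retaining sample, while MMP20, MMP27, MMP8 and MMP3, which lie among them, and MMP13, at the end of the cluster beyond MMP12, stayed at 0.33 TPM or less in these 12 samples.

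The membrane-type MMPs split by direction. MMP14 (MT1-MMP), a collagenase at the cell surface that activates proMMP2, was at 46.9 and 44.6 TPM in WT H1, 53.1 and 53.01 in EZH1-/-, 36.3 and 31.1 in EZH2-/-, 1168 and 715 in EED-/-, 244 and 245 in SUZ12-/- and at 548 and 375 in the double knockout. The ranges were far apart, with no PRC2-null sample under 244 TPM. Against WT H1 the log2 difference was 4.29 in EED-/-, 2.39 in SUZ12-/- and 3.28 in the double knockout (SE 0.24 each, largest adjusted p = 2.01e-05), or 20.6-fold, 5.34-fold and 10.1-fold higher mean TPM. MMP15 (MT2-MMP) was at 29.98 and 25.9 TPM in WT H1, 37.97 and 40.2 in EZH1-/-, 35.3 and 45.5 in EZH2-/-, 92.8 and 152 in EED-/-, 28.9 and 30.9 in SUZ12-/- and at 90.1 and 85.6 in the double knockout. It was higher in EED-/- and the double knockout than in any other line, while SUZ12-/- H1 overlapped WT H1. On the log2 scale it differed from WT H1 by 2.05 in EED-/- and 1.62 in the double knockout (SE 0.24 each, largest adjusted p = 0.000326), and the SUZ12-/- difference was 0.10 (adjusted p = 0.768). The double-knockout call was lost without WT H1 replicate 2 (log2 difference 1.52, adjusted p = 0.00582) and under median-ratio scaling (1.47, adjusted p = 0.00197).

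MMP16 (MT3-MMP) was at 6.33 and 7.55 TPM in WT H1, 7.04 and 8.23 in EZH1-/-, 3.26 and 2.58 in EZH2-/-, 25.8 and 21.8 in EED-/-, 9.02 and 9.05 in SUZ12-/- and at 15.1 and 7.29 in the double knockout. Only the EED-/- samples stood above all other samples. Its log2 difference to WT H1 was 1.64 in EED-/- (SE 0.32, adjusted p = 0.00136), and this call was lost under median-ratio scaling (1.27, adjusted p = 0.00119). It was also lost without EED-/- replicate 1 or WT H1 replicate 1 (log2 difference 1.53 in both cases, adjusted p = 0.0145 to 0.0164). MMP24 (MT5-MMP), known from the nervous system, was at 6.81 and 9.61 TPM in WT H1, 10.4 and 11.6 in EZH1-/-, 5.95 and 22.2 in EZH2-/-, 48.9 and 28.3 in EED-/-, 2.43 and 2.1 in SUZ12-/- and at 15.96 and 6.71 in the double knockout. EED-/- H1 was highest, SUZ12-/- H1 was lowest and the PRC2-retaining samples spanned 5.95 to 22.2 TPM. For MMP24 the log2 difference to WT H1 was 2.07 in EED-/- (SE 0.53, adjusted p = 0.00786), and the call was lost when any 1 of 8 samples was left out (log2 difference 1.69 to 2.45, adjusted p = 0.013 to 0.0759), under median-ratio scaling (1.69, adjusted p = 0.0217) and without the filter on low values (adjusted p = 0.0162). The SUZ12-/- difference was -1.48 and was not called (adjusted p = 0.0413). MMP24 shares 18.4% of its exon bases with MMP24OS on the other strand, which was at 21.8 to 33.7 TPM in the PRC2-retaining and 39.9 to 142 TPM in the PRC2-null samples.

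MMP17 (MT4-MMP) and MMP25 (MT6-MMP) are held at the membrane by a glycolipid anchor, unlike the other membrane-type members, and were the members of this group that fell. MMP17 was at 42.7 and 26.2 TPM in WT H1, 26.8 and 41.1 in EZH1-/-, 22 and 18.97 in EZH2-/-, 6.94 and 4.16 in EED-/-, 2.43 and 1.81 in SUZ12-/- and at 3.05 and 4.78 in the double knockout. No PRC2-null sample exceeded 6.94 TPM and no PRC2-retaining sample was below 18.97. The difference of MMP17 to WT H1 was -2.43 in EED-/-, -3.47 in SUZ12-/- and -2.83 in the double knockout (SE 0.35 each, largest adjusted p = 0.00019). MMP25 was at 20.1 and 12.9 TPM in WT H1, 20.2 and 26.1 in EZH1-/-, 17.97 and 18.6 in EZH2-/-, 1.42 and 0.98 in EED-/-, 1.79 and 1.29 in SUZ12-/- and at 2.45 and 1.85 in the double knockout. Its ranges were separate as well, at most 2.45 against at least 12.9 TPM. The log2 difference to WT H1 was -2.97 in EED-/-, -2.76 in SUZ12-/- and -2.45 in the double knockout (SE 0.29 each, largest adjusted p = 7.66e-05). On mean TPM, MMP25 was 13.8-fold, 10.7-fold and 7.68-fold lower than in WT H1. The antisense gene MMP25-AS1 covers 30.6% of the MMP25 exon bases and was at 1.32 to 4.72 TPM in the PRC2-retaining and 3.65 to 16.3 TPM in the PRC2-null samples, and reads from the shared bases cannot be told apart.

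Among the remaining MMPs, epilysin MMP28, an epithelial member, was at 0.27 and 0 TPM in WT H1, 0 and 0 in EZH1-/-, 0.28 and 0 in EZH2-/-, 8.6 and 4.29 in EED-/-, 8.78 and 7.82 in SUZ12-/- and at 5.7 and 1.35 in the double knockout. It was at 0.28 TPM or less in every PRC2-retaining sample. Against WT H1 the log2 difference was 2.66 in EED-/-, 3.04 in SUZ12-/- and 1.82 in the double knockout (SE 0.45 each, largest adjusted p = 0.00781). The call in the double knockout rested on replicate 1 at 5.7 TPM beside replicate 2 at 1.35 TPM, and it was lost when any 1 of 9 samples was left out (log2 difference 1.06 to 1.99, adjusted p = 0.0127 to 0.0607). MMP19 was at 0.52 to 3.31 TPM in the PRC2-retaining and 2.91 to 6.69 TPM in the PRC2-null samples and was not called. MMP21 did not exceed 0.16 TPM in the 12 samples.

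The TIMPs rose except for TIMP4. TIMP1, a broad inhibitor of secreted MMPs, was at 86.7 and 83.96 TPM in WT H1, 83.6 and 83.8 in EZH1-/-, 64.4 and 51.4 in EZH2-/-, 819 and 413 in EED-/-, 599 and 639 in SUZ12-/- and at 410.3 and 505 in the double knockout. No PRC2-null sample was under 410.3 TPM and no PRC2-retaining sample over 86.7. On the log2 scale it differed from WT H1 by 2.76 in EED-/-, 2.84 in SUZ12-/- and 2.40 in the double knockout (SE 0.27 each, largest adjusted p = 5.47e-05), or 7.22-fold, 7.25-fold and 5.36-fold higher mean TPM. TIMP2, which inhibits MMP2 and also takes part in its activation by MMP14, was at 26.8 and 28.3 TPM in WT H1, 17.4 and 17.5 in EZH1-/-, 22.4 and 19.6 in EZH2-/-, 423 and 202 in EED-/-, 88.9 and 83.98 in SUZ12-/- and at 139 and 133 in the double knockout. The ranges were separate, with EED-/- H1 highest. Its log2 difference to WT H1 was 3.37 in EED-/-, 1.62 in SUZ12-/- and 2.26 in the double knockout (SE 0.28 each, largest adjusted p = 0.000773). In SUZ12-/- H1 the TIMP2 difference dropped to 1.44 under median-ratio scaling, below the fold of 3, and the call was lost without SUZ12-/- replicate 1 or WT H1 replicate 1 (log2 difference 1.58 in both cases, adjusted p = 0.00907 to 0.00911).

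TIMP3, which is bound to the matrix and also inhibits ADAM and ADAMTS proteases, had the largest change of the 4 inhibitors. TIMP3 was at 2.76 and 3.07 TPM in WT H1, 1.72 and 1.54 in EZH1-/-, 1.68 and 2.04 in EZH2-/-, 653 and 202 in EED-/-, 342 and 357 in SUZ12-/- and at 175 and 76.9 in the double knockout. It went from at most 3.07 TPM to at least 76.9 TPM. For TIMP3 the log2 difference to WT H1 was 6.54 in EED-/-, 6.48 in SUZ12-/- and 4.90 in the double knockout (SE 0.48 each, largest adjusted p = 2.2e-05), or 147-fold, 119.8-fold and 43.2-fold higher mean TPM. TIMP4, an inhibitor of restricted tissue range, was at 11 and 12.4 TPM in WT H1, 8.27 and 9.89 in EZH1-/-, 12 and 26.98 in EZH2-/-, 5.58 and 3.94 in EED-/-, 3.09 and 4.09 in SUZ12-/- and at 2.71 and 1.87 in the double knockout. All 6 PRC2-null samples were below all 6 PRC2-retaining samples. The difference of TIMP4 to WT H1 was -1.96 in the double knockout (SE 0.36, adjusted p = 0.00136), and it was not called in EED-/- H1 (-1.15, adjusted p = 0.0204) or SUZ12-/- H1 (-1.48, adjusted p = 0.00635). Over the 3 lines together TIMP4 fell by 1.61 on the log2 scale (adjusted p = 4.43e-05). That call was lost when any 1 of 5 samples was left out (log2 difference -1.58 to -1.43, adjusted p = 6.48e-05 to 0.000315), and the call in the double knockout was lost without WT H1 replicate 1 or WT H1 replicate 2 (log2 difference -2.04 to -1.88, adjusted p = 0.0107 to 0.0157). It shares 14.2% of its exon bases with SYN2, which was at 1.7 to 5.21 TPM in the 12 samples.

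The proteoglycanase ADAMTSs moved in both directions. ADAMTS9, which cuts versican and aggrecan, was at 0.64 and 0.38 TPM in WT H1, 0.15 and 0.47 in EZH1-/-, 0.77 and 0.31 in EZH2-/-, 32.1 and 57.2 in EED-/-, 89.4 and 89 in SUZ12-/- and at 33.5 and 28.5 in the double knockout. It was under 1 TPM in all PRC2-retaining samples and highest in SUZ12-/- H1. The log2 difference to WT H1 was 4.87 in EED-/-, 5.91 in SUZ12-/- and 4.41 in the double knockout (SE 0.32 each, largest adjusted p = 2.86e-06). ADAMTS1, a versican-cutting member with antiangiogenic activity, was at 12.4 and 9.51 TPM in WT H1, 8.34 and 5.42 in EZH1-/-, 12.6 and 14.03 in EZH2-/-, 23.3 and 42.02 in EED-/-, 90.5 and 87.9 in SUZ12-/- and at 139 and 28.7 in the double knockout. The 6 PRC2-null samples were above the others, but the double-knockout samples differed widely from each other. Against WT H1 the log2 difference was 2.93 in SUZ12-/- and 2.44 in the double knockout (SE 0.56 each, largest adjusted p = 0.00521), and the EED-/- difference was 1.45 (adjusted p = 0.0519). The SUZ12-/- call was lost without SUZ12-/- replicate 1, SUZ12-/- replicate 2 or WT H1 replicate 2 (log2 difference 2.75 to 2.95, adjusted p = 0.0118 to 0.0167), and the double-knockout call was lost without double-knockout replicate 1, WT H1 replicate 1 or WT H1 replicate 2 (log2 difference 1.33 to 2.62, adjusted p = 0.0118 to 0.0421).

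ADAMTS5, the main aggrecanase of cartilage together with ADAMTS4, was at 0.49 and 0.48 TPM in WT H1, 0.18 and 0.15 in EZH1-/-, 0.49 and 0.13 in EZH2-/-, 12.8 and 3.79 in EED-/-, 2.51 and 2.19 in SUZ12-/- and at 5.01 and 1.61 in the double knockout. All PRC2-null samples were above all PRC2-retaining samples at low levels. On the log2 scale it differed from WT H1 by 2.45 in EED-/- (SE 0.48, adjusted p = 0.00165), with SUZ12-/- (1.17, adjusted p = 0.0685) and the double knockout (1.42, adjusted p = 0.0352) not called. The EED-/- call was lost without EED-/- replicate 1, WT H1 replicate 1 or WT H1 replicate 2 (log2 difference 1.69 to 2.46, adjusted p = 0.0136 to 0.0155). ADAMTS15, a further proteoglycan-cutting member, was at 2.14 and 2.19 TPM in WT H1, 2.82 and 2.57 in EZH1-/-, 2.68 and 3.06 in EZH2-/-, 3.23 and 3.59 in EED-/-, 44.97 and 46.7 in SUZ12-/- and at 6.65 and 1.94 in the double knockout. Only the 2 SUZ12-/- samples stood apart. Its log2 difference to WT H1 was 3.89 in SUZ12-/- (SE 0.38, adjusted p = 1.48e-05), 21.2-fold on mean TPM, against 0.48 in EED-/- H1 (adjusted p = 0.315) and 0.58 in the double knockout (adjusted p = 0.235).

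ADAMTS8, the chromosome 11 neighbour of ADAMTS15 (130404923 to 130428609 on the minus strand, against 130448645 to 130476645 on the plus strand), was at 17.4 and 18.5 TPM in WT H1, 17.3 and 17.4 in EZH1-/-, 10.6 and 6.66 in EZH2-/-, 0.27 and 0.51 in EED-/-, 2.21 and 1.23 in SUZ12-/- and at 1.45 and 0.58 in the double knockout. It went the other way, from at least 6.66 TPM to at most 2.21. For ADAMTS8 the log2 difference to WT H1 was -3.78 in EED-/-, -2.83 in SUZ12-/- and -3.27 in the double knockout (SE 0.32 each, largest adjusted p = 4.61e-05). ADAMTS4, the second aggrecanase, was at 5.24 and 2.28 TPM in WT H1, 4.5 and 5.71 in EZH1-/-, 2.07 and 2.68 in EZH2-/-, 0.44 and 0.24 in EED-/-, 2.26 and 1.78 in SUZ12-/- and at 0.52 and 0.29 in the double knockout. The EED-/- and double-knockout samples were all at 0.52 TPM or less, and SUZ12-/- H1 overlapped the PRC2-retaining lines. The difference of ADAMTS4 to WT H1 was -1.76 in EED-/- and -1.69 in the double knockout (SE 0.33 each, largest adjusted p = 0.00181), and the SUZ12-/- difference was -0.59 (adjusted p = 0.164). The EED-/- call was lost without WT H1 replicate 1 (log2 difference -1.30, adjusted p = 0.0145), and the double-knockout call was lost without double-knockout replicate 2 or WT H1 replicate 1 (log2 difference -1.57 to -1.23, adjusted p = 0.00898 to 0.0231). ADAMTS20 was at 1.24 to 4.04 TPM in the PRC2-retaining and 0.65 to 18.7 TPM in the PRC2-null samples and was not called.

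None of the 3 procollagen N-proteinases, which trim fibrillar procollagens, was called in any line. ADAMTS2 was at 4.18 to 9.10 TPM in the PRC2-retaining and 1.35 to 15.2 TPM in the PRC2-null samples. ADAMTS3 was at 0.7 to 2.33 and 0.36 to 2.10 TPM, and ADAMTS14 at 1.37 to 3.38 and 0.43 to 7.60 TPM. In all 3 genes the ranges overlapped.

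Of the other 8 ADAMTSs, ADAMTS12, ADAMTS6 and ADAMTS18 rose in all 3 PRC2-null lines. ADAMTS12, which cleaves cartilage oligomeric matrix protein, was at 6.39 and 6.68 TPM in WT H1, 8.08 and 6.05 in EZH1-/-, 7.38 and 8.06 in EZH2-/-, 69.3 and 75.3 in EED-/-, 40.6 and 39.1 in SUZ12-/- and at 75.3 and 16.3 in the double knockout. No PRC2-null sample was below 16.3 TPM and no PRC2-retaining sample above 8.08. The log2 difference to WT H1 was 3.28 in EED-/-, 2.44 in SUZ12-/- and 2.27 in the double knockout (SE 0.51 each, largest adjusted p = 0.00437). The SUZ12-/- call was lost when any 1 of 4 samples was left out (log2 difference 2.41 to 2.47, adjusted p = 0.0171 to 0.0197), and the double-knockout call was lost without double-knockout replicate 1, WT H1 replicate 1 or WT H1 replicate 2 (log2 difference 1.2 to 2.30, adjusted p = 0.00214 to 0.0303). ADAMTS6 was at 0.22 and 1.2 TPM in WT H1, 1.11 and 1.25 in EZH1-/-, 0.26 and 0.5 in EZH2-/-, 18.03 and 15.03 in EED-/-, 7.77 and 8.41 in SUZ12-/- and at 7.45 and 3.77 in the double knockout. Its ranges did not overlap. Against WT H1 the log2 difference was 3.41 in EED-/-, 2.47 in SUZ12-/- and 1.95 in the double knockout (SE 0.35 each, largest adjusted p = 0.00125). The double-knockout call was lost without double-knockout replicate 1 or WT H1 replicate 1 (log2 difference 1.53 to 1.54, adjusted p = 0.00652 to 0.0186). ADAMTS18 was at 0.17 and 0 TPM in WT H1, 0.02 and 0.12 in EZH1-/-, 0.05 and 0.03 in EZH2-/-, 14.1 and 22.7 in EED-/-, 19.2 and 21.2 in SUZ12-/- and at 38.4 and 7.36 in the double knockout. No PRC2-retaining sample exceeded 0.17 TPM and no PRC2-null sample was below 7.36. On the log2 scale it differed from WT H1 by 4.13 in EED-/-, 4.29 in SUZ12-/- and 4.07 in the double knockout (SE 0.56 each, largest adjusted p = 0.000198).

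ADAMTS16 and ADAMTS17, whose substrates are less well known, were called in EED-/- and the double knockout. ADAMTS16 was at 3.64 and 3.01 TPM in WT H1, 6.18 and 6.9 in EZH1-/-, 4.2 and 4.32 in EZH2-/-, 55.7 and 38.8 in EED-/-, 6.33 and 6.11 in SUZ12-/- and at 19.6 and 16.8 in the double knockout. SUZ12-/- H1 overlapped EZH1-/- H1. Its log2 difference to WT H1 was 3.46 in EED-/- and 2.15 in the double knockout (SE 0.25 each, largest adjusted p = 7.12e-05), and the SUZ12-/- difference was 0.74 (adjusted p = 0.0322). ADAMTS17 was at 0.67 and 0.89 TPM in WT H1, 0.43 and 0.56 in EZH1-/-, 0.86 and 1.82 in EZH2-/-, 5.64 and 7.2 in EED-/-, 1.84 and 1.83 in SUZ12-/- and at 6.41 and 9.09 in the double knockout. SUZ12-/- H1 was again lowest of the PRC2-null lines, just above EZH2-/- replicate 2. For ADAMTS17 the log2 difference to WT H1 was 2.05 in EED-/- and 2.28 in the double knockout (SE 0.29 each, largest adjusted p = 0.000192), and the SUZ12-/- difference was 0.67 (adjusted p = 0.0809). Over the 3 PRC2-null lines together, the calls of ADAMTS16 (1.52) and ADAMTS17 (1.45) came under the fold of 3 with median-ratio scaling, and that of ADAMTS17 was lost without EED-/- replicate 2, double-knockout replicate 2 or EZH2-/- replicate 1 (log2 difference 1.53 to 1.58, adjusted p = 1.58e-05 to 4.75e-05). ADAMTS7, ADAMTS10 and ADAMTS19 were not called, with 20.3 to 31.5, 5.96 to 17.0 and 9.74 to 17.3 TPM in the PRC2-retaining samples and 24.8 to 88.9, 10.9 to 34.1 and 3.61 to 22.0 TPM in the PRC2-null samples.

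In EZH1-/- H1 and EZH2-/- H1, 0 of the 37 genes were called by limma against WT H1. Over all genes 0.0576% were called higher and 0.0419% lower in EZH1-/- H1, and 0.0% in EZH2-/- H1. At an unadjusted p under 0.05, 2 members passed in EZH1-/- H1 (TIMP2 and ADAMTS16) and 4 in EZH2-/- H1 (MMP9, MMP19, ADAMTS8 and MMP16), where 16.0% and 5.81% of all genes did. TIMP2 was at 17.4 and 17.5 TPM in EZH1-/- H1 against 26.8 and 28.3 in WT H1, and ADAMTS8 was at 10.6 and 6.66 TPM in EZH2-/- H1 against 17.4 and 18.5. The median log2 differences of the members were 0.0 and -0.05, beside 0.02 and -0.06 over all genes. A p above the threshold does not show that these levels were equal.

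Summed over the family, the PRC2-retaining samples held 370 to 467 TPM and the PRC2-null samples held 1965 to 6316. The sum was 6316 and 3204 TPM in EED-/- H1, 2154 and 2177 in SUZ12-/- H1, and 2668 and 1965 in the double knockout. The rise was unequal between proteases and inhibitors. The summed MMP transcripts were 4012 and 2028 TPM in EED-/- H1, 705 and 674 in SUZ12-/- H1, and 1499 and 1091 in the double knockout, against 164 to 230 in the PRC2-retaining samples. The summed TIMPs were 1901 and 821 TPM, 1032 and 1084, and 727 and 716 in the same lines, against 100.1 to 128. The ratio of MMP to TIMP transcripts was therefore 0.683 and 0.621 in SUZ12-/- H1, lower than in every other of the 19 samples, while it was 1.52 to 2.47 in the other 4 PRC2-null samples and 1.33 to 2.04 in the PRC2-retaining samples. This ratio was not tested. MMP2 and MMP14 together made up 32.9% to 45.7% of the MMP transcripts in the PRC2-retaining samples and 59.1% to 77.5% in the PRC2-null samples.

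**Figure D3:**
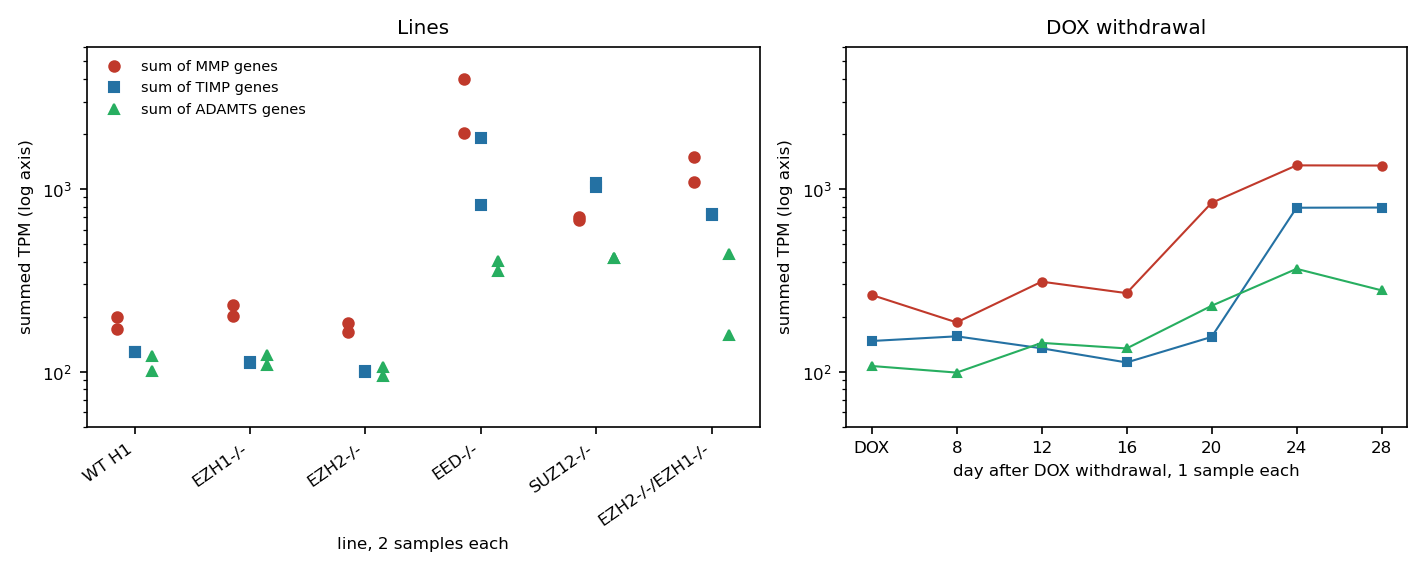
Summed TPM (log axis) of the 19 MMPs, 4 TIMPs and 18 ADAMTSs in the 2 samples of each line (left) and in the 1 sample of each time point of DOX withdrawal (right). In SUZ12-/- H1 the TIMP sum (1032 and 1084) lay above the MMP sum (705 and 674), and at day 20 of withdrawal the MMP sum stood at 840 while the TIMP sum was at 155.

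The 2 samples of a line were not equally close. Between the 2 samples the median absolute difference of the 37 genes was 0.10 in SUZ12-/- H1, 0.20 in WT H1, 0.71 in EED-/- H1 and 0.68 in the double knockout on the log2 scale. Over all 19100 genes tested it was 0.128, 0.163, 0.301 and 0.505 in the same lines. Replicate 1 was the higher sample for 26 of the 37 genes in EED-/- H1, 32 in the double knockout, 19 in WT H1 and in SUZ12-/- H1, 17 in EZH2-/- H1 and 7 in EZH1-/- H1. The median-ratio scaling factors, taken over genes at large, were uneven in the same direction. They were 1.30 and 1.16 for replicates 1 and 2 of EED-/- H1, 1.17 and 0.92 in the double knockout, and 0.91 and 1.00 in EZH1-/- H1. The largest difference within a line was 2.24 (log2) and occurred in the double knockout. The mesenchyme markers ranged from 4408 to 7809 TPM in summed level over the 2 EED-/- samples and from 2501 to 4979 over the 2 double-knockout samples.

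The PRC2-null lines also differed from each other. Against EED-/- H1, 11 of the 37 genes were called in SUZ12-/- H1, where 6.12% of all genes were, 10 lower and ADAMTS15 higher. MMP1 was at 84.4 and 52.8 TPM in SUZ12-/- H1 against 1122 and 395 in EED-/- H1, a difference of -3.30 ± 0.48 (SE, adjusted p = 0.000897). MMP12 differed by -3.10 ± 0.34 (SE, adjusted p = 0.000151), MMP24 by -3.55 ± 0.53 (SE, adjusted p = 0.00108) and ADAMTS16 by -2.72 ± 0.25 (SE, adjusted p = 5.21e-05). MMP14 differed by -1.90 ± 0.24 (SE, adjusted p = 0.000408), MMP2 by -1.66 ± 0.28 (SE, adjusted p = 0.00235) and TIMP2 by -1.75 ± 0.28 (SE, adjusted p = 0.00158). MMP15 differed by -1.96 ± 0.24 (SE, adjusted p = 0.000303), MMP11 by -1.90 ± 0.41 (SE, adjusted p = 0.00875) and MMP10 by -1.87 ± 0.28 (SE, adjusted p = 0.00116). ADAMTS15 was higher by 3.41 ± 0.38 (SE, adjusted p = 0.000171). TIMP1 (599 and 639 TPM against 819 and 413) and TIMP3 (342 and 357 against 653 and 202) overlapped between these lines and were not called.

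The number of these calls depended on single samples, with 5 without EED-/- replicate 1, 6 without SUZ12-/- replicate 1 and 5 without SUZ12-/- replicate 2. The call of MMP11 was lost when any 1 of 9 samples was left out (log2 difference -1.92 to -1.18, adjusted p = 0.0137 to 0.0674). The calls of MMP2 (-1.67 to -1.12, adjusted p = 0.00817 to 0.0242), TIMP2 (-1.79 to -1.22, adjusted p = 0.00544 to 0.0199), MMP10 (-1.99 to -1.56, adjusted p = 0.00933 to 0.0191) and MMP24 (-3.63 to -3.17, adjusted p = 0.0109 to 0.0174) were lost without EED-/- replicate 1 or without either SUZ12-/- sample. That of MMP14 was lost without EED-/- replicate 1 (-1.55, adjusted p = 0.00432) and that of MMP1 without SUZ12-/- replicate 2 (-2.97, adjusted p = 0.0149). Median-ratio scaling left MMP2 (-1.45) and TIMP2 (-1.54) under the fold of 3. For MMP1 and MMP10 the mean of the double knockout lay near that of SUZ12-/- H1, with levels in EED-/-, SUZ12-/- and the double knockout of 759, 68.6 and 63.2 TPM for MMP1 and 16.9, 3.8 and 4.95 TPM for MMP10. ADAMTS15, MMP12, MMP15 and ADAMTS16 kept their calls with every sample left out in turn. Between the double knockout and EED-/- H1 no member was called by limma (0 of 37, 0.089% of all genes), 15 had an unadjusted p under 0.05 (20.1% of all genes did), and 5 were called, all lower, without double-knockout replicate 1, as were 4 without EED-/- replicate 2. Between SUZ12-/- H1 and the double knockout, 2 of 37 were called (4.46% of all genes), ADAMTS15 higher by 3.30 ± 0.38 (SE, adjusted p = 0.000249) and ADAMTS17 lower in SUZ12-/- H1, at 1.84 and 1.83 against 6.41 and 9.09 TPM. The call of ADAMTS17 was lost when any 1 of 7 samples was left out (log2 difference -1.61 to -1.39, adjusted p = 0.0104 to 0.0428), and 5 members were called without double-knockout replicate 1. Mesenchyme markers summed to 20272 and 20613 TPM and endoderm markers to 16330 and 16901 TPM in the SUZ12-/- samples, above the other PRC2-null samples (at most 7809 and 2666). Of the endoderm markers, however, only AFP and TTR were higher there than in the other PRC2-null samples. SOX17, FOXA2 and GATA4 were lower there than in every other PRC2-null sample, and GATA6 overlapped them. The part of these markers in the differences between the lines was not tested.

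**Figure D4:**
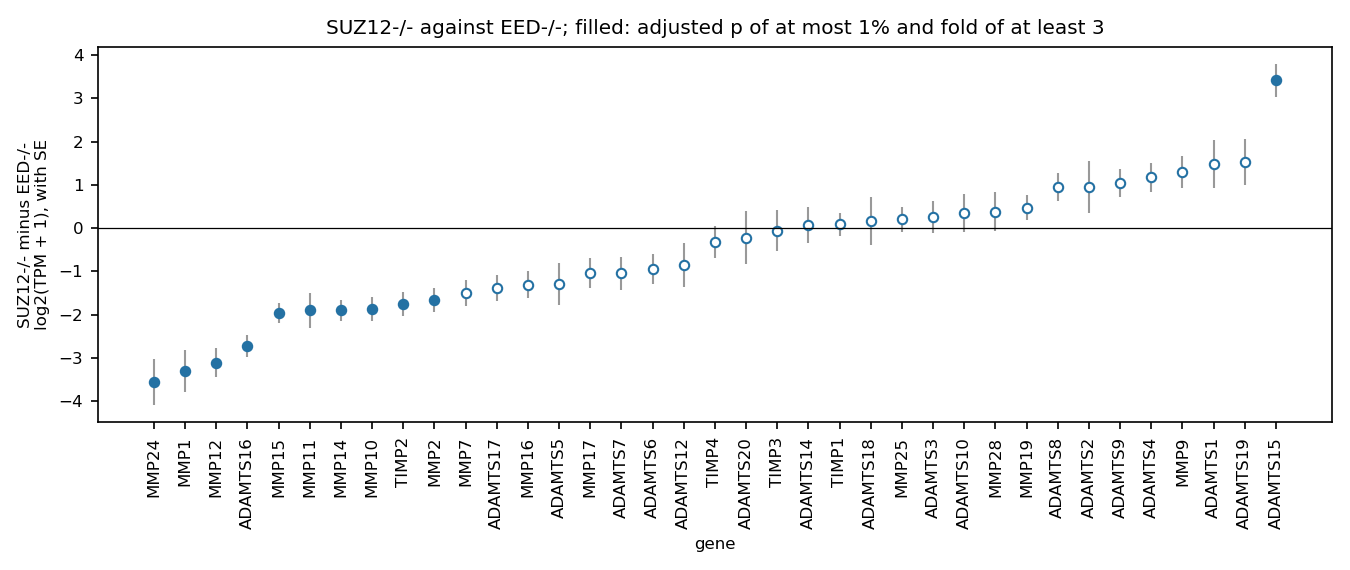
Difference between SUZ12-/- H1 and EED-/- H1 in log2(TPM + 1) for the 37 genes, with the SE of the limma fit as bars. Filled points are the 11 calls, 10 below 0 and ADAMTS15 above.

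In H1-EED-/-/EED-OE cells the genes left their DOX level at different days. MMP2 was past 3-fold by day 16, MMP14, ADAMTS9 and TIMP3 by day 20, MMP1, MMP11, TIMP1 and TIMP2 by day 24, and MMP10 by day 28. With 1 sample per time point there was no test, and the fold is that of TPM + 1 to the DOX sample. DOX itself, the EED transgene and the time since withdrawal changed together, so that their parts cannot be told apart. Some of these days hung on small margins. At day 16 MMP2 was at 3.19-fold and ADAMTS9 at 2.99-fold, and at day 20 TIMP3 was at 3.01-fold. For genes with a low DOX value, such as ADAMTS9, the day also depends on the pseudocount. Of the 41 genes, 36 reached 1 TPM in at least 1 of the 7 samples, and MMP3, MMP7, MMP8, MMP13 and MMP21 did not. At day 8 only TIMP4 was past the fold, being lower (1 of 36, 3.37% of all 19011 genes), and at day 12 only ADAMTS16, being higher (3.24%). At day 16, 4 were higher and MMP17 was lower (4.71% of all genes were off in either direction), but this balance depended on the reference, with 1 higher and 3 lower against WT H1, and was 1 and 1 under median-ratio scaling. At day 20, 9 were higher and 3 lower (9.07% and 2.69% of all genes). At day 24 these were 15 and 3 (12.9% and 4.67%), and at day 28 they were 18 and 5 (17.9% and 5.61%). The median log2 difference to the DOX sample was 0.35 at day 20, 1.2 at day 24 and 1.58 at day 28, beside 0.16, 0.18 and 0.40 over all genes measured.

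Among the matrix-cutting MMPs, MMP2 was at 34.1 TPM with DOX and 32.9, 83.5, 111, 428, 648 and 428 at days 8 to 28. It stepped up from day 12 and was highest at day 24. MMP14 was at 49 TPM with DOX and 24.9, 54.3, 58.2, 218, 511 and 563 at days 8 to 28, with its step between days 16 and 20. MMP1 was at 0 TPM with DOX and 0.33, 0, 0, 0, 6.13 and 93.9 at days 8 to 28, so that its high level was seen at day 28 only. MMP10 was at 0 TPM with DOX and 0, 0, 0, 0, 1.12 and 5.17 at days 8 to 28 and MMP11 at 12.9 TPM with DOX and 8.25, 10.7, 7.49, 5.34, 45.2 and 50.3 at days 8 to 28. Both had their highest value at day 28. MMP15 was at 45.5 TPM with DOX and 38.7, 50.5, 37.2, 122, 92.4 and 166 at days 8 to 28, and MMP28 at 0 TPM with DOX and 0.5, 0, 0, 0.42, 16.8 and 2.71 at days 8 to 28.

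Among the inhibitors, TIMP1 was at 122 TPM with DOX and 123, 101, 74.6, 109, 554 and 585 at days 8 to 28. Its values up to day 20 lay between 74.6 and 123 TPM, and those of days 24 and 28 at 554 or more. TIMP2 was at 15.95 TPM with DOX and 30.5, 26.3, 29.5, 31.5, 85 and 102 at days 8 to 28, and TIMP3 at 2.96 TPM with DOX and 1.16, 2.55, 2.63, 10.9, 149 and 100.4 at days 8 to 28. TIMP4 was at 6.42 TPM with DOX and 1.18, 4.6, 5.47, 3.34, 2.06 and 4.89 at days 8 to 28 and showed no late rise. The ratio of summed MMP to summed TIMP transcripts was 5.42 at day 20 and between 1.19 and 2.40 at the other 6 time points.

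MMP9 was highest at day 20. It was at 4.08 TPM with DOX and 1.5, 6.6, 10.3, 43.2, 2.15 and 0.44 at days 8 to 28. The value at day 20 was 8.69-fold that with DOX on TPM + 1, and it was the highest MMP9 level of the 19 samples, whereas both EED-/- samples were at 1.53 TPM or less. ADAMTS3 was at 0.99 TPM with DOX and 0.91, 1.77, 1.67, 8.44, 1.92 and 1.26 at days 8 to 28, ADAMTS5 at 0.07 TPM with DOX and 0.27, 0.1, 0.56, 5.41, 0.78 and 1.04 at days 8 to 28, and ADAMTS19 at 8.17 TPM with DOX and 13.7, 19.4, 35.04, 30.5, 11.6 and 11.8 at days 8 to 28. These 3 genes were also highest at day 16 or 20 and lower afterwards. At day 20 the pluripotency markers summed to 2498 TPM, against 4777 to 5665 up to day 16 and 401 to 439 at days 24 and 28, and the mesenchyme markers to 119, against 30.6 to 69.4 and 3950 to 4947. The endoderm markers summed to 376 TPM at day 20, against 3.90 to 85.4 before and 376 to 793 after. The part of these cell types in the order of the genes was not tested.

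Among the ADAMTSs that rose in PRC2-null lines, ADAMTS9 was at 0.51 TPM with DOX and 0.79, 2.66, 3.52, 56.7, 106 and 68.9 at days 8 to 28. ADAMTS1 was at 3.78 TPM with DOX and 3.78, 5.26, 13.8, 42.4, 70.7 and 24.5 at days 8 to 28, with its highest value at day 24. ADAMTS12 was at 4.33 TPM with DOX and 3.13, 4.76, 4.32, 10.8, 40.8 and 29.02 at days 8 to 28. ADAMTS18 was at 0.04 TPM with DOX and 0, 0.47, 0.48, 1.49, 9.16 and 9.56 at days 8 to 28, and ADAMTS6 at 0.2 TPM with DOX and 0.32, 0.6, 0.64, 0.62, 2.31 and 9.3 at days 8 to 28. In these 5 genes the values at days 24 and 28 were above those at DOX to day 16. ADAMTS16 was at 1.48 TPM with DOX and 2.17, 8.14, 7.04, 1.98, 2.74 and 29.3 at days 8 to 28, with an early and a late high. ADAMTS17 was at 0.37 TPM with DOX and 0.8, 0.33, 0.21, 0.99, 2.26 and 5.01 at days 8 to 28, ADAMTS15 at 1.84 TPM with DOX and 0.72, 3.51, 5.38, 4.84, 15.1 and 4.71 at days 8 to 28, and ADAMTS20 at 1.12 TPM with DOX and 2.29, 2.44, 1.81, 0.35, 5.37 and 5.93 at days 8 to 28.

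Of the genes called lower in PRC2-null lines, MMP17, MMP25 and ADAMTS8 were below their earlier values late in the course, whereas the late values of TIMP4, given above, overlapped its earlier ones. MMP17 was at 74.4 TPM with DOX and 45.3, 68.2, 23.7, 8.81, 3.8 and 8.19 at days 8 to 28. MMP25 was at 35.5 TPM with DOX and 20.5, 27.8, 17.1, 8.09, 5.36 and 2.38 at days 8 to 28. ADAMTS8 was at 10.97 TPM with DOX and 8.21, 12.7, 5.19, 1.59, 0.55 and 1.08 at days 8 to 28. Each of these 3 was lower at days 20 to 28 than at every earlier point. ADAMTS4 was at 2.58 TPM with DOX and 1.11, 1.94, 1.77, 2.21, 1.97 and 0.17 at days 8 to 28, with its drop at day 28. MMP12 reached 1.30 TPM, at day 28 only, MMP16 was between 1.37 and 6.79 TPM, and MMP24 between 0.74 and 8.82. MMP19 was between 1.26 and 6.13 TPM, ADAMTS2 between 3.34 and 28.0, ADAMTS7 between 38.3 and 59.1, ADAMTS10 between 7.88 and 29.3, and ADAMTS14 between 0.42 and 2.31, lower at days 20 to 28 than before. Of the 36 genes, 11 had days 20 to 28 all above DOX to day 16 and 4 all below, where 17.7% and 11.2% of all genes measured did, and 18 had days 24 and 28 both above every earlier sample, where 23.4% of all did.

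**Figure D5:**
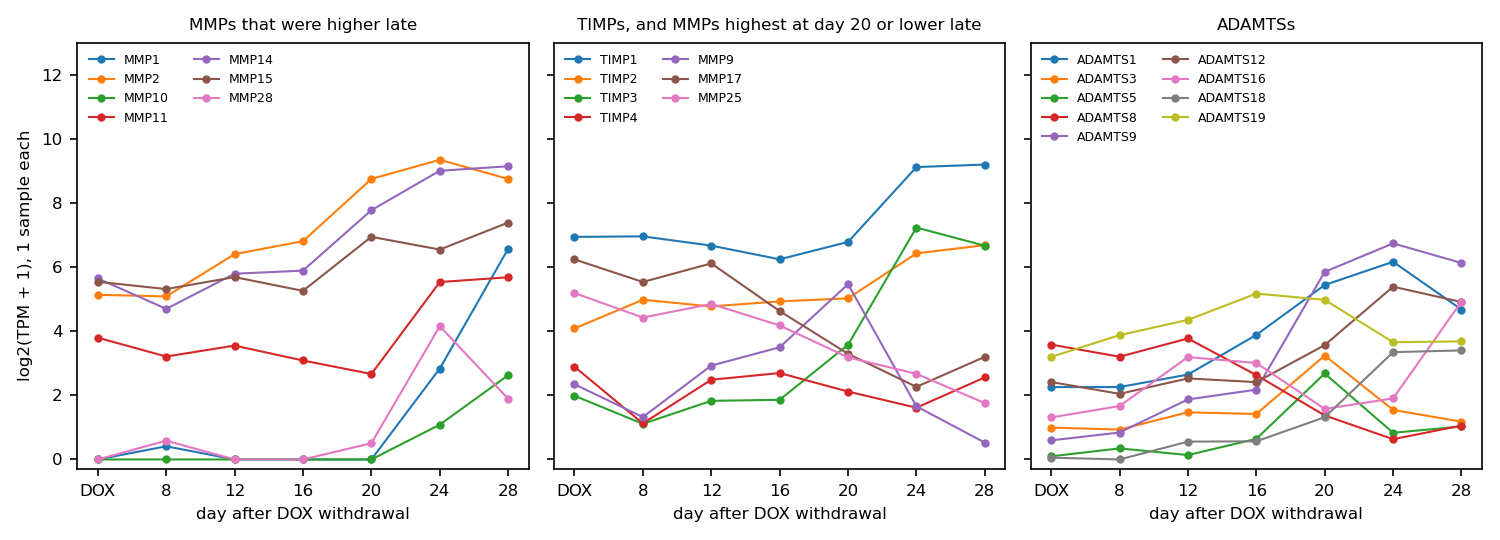
Level as log2(TPM + 1) in H1-EED-/-/EED-OE cells with DOX and at 8 to 28 days after withdrawal, with 1 sample per point and lines that only join the points. MMP2 (left) was highest at day 24, MMP9 (middle) at day 20, and ADAMTS9 (right) at day 24.

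Set side by side, the levels at day 28 were mostly below those of EED-/- H1. MMP1 was at 93.9 TPM at day 28 and at a mean of 759 in EED-/- H1, MMP2 at 428 and 884, MMP14 at 563 and 942, TIMP1 at 585 and 616, TIMP2 at 102 and 313, and TIMP3 at 100.4 and 427. MMP15 (166 and 123) and ADAMTS9 (68.9 and 44.7) were higher at day 28. The DOX sample was near WT H1 in MMP2 (34.1 against a mean of 31.1 TPM), MMP14 (49.0 and 45.8) and TIMP3 (2.96 and 2.92), and was higher in MMP17 (74.4 and 34.5) and MMP25 (35.5 and 16.5). It was lower in TIMP2 (15.95 and 27.5), ADAMTS1 (3.78 and 10.9), MMP16 (1.87 and 6.94) and MMP24 (3.57 and 8.21), among others. These are single samples or pairs and were not tested.

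Genes that act with these proteases were examined as 6 further lists, of 54 genes in all, to be read beside the 16.2%, 14.5% and 11.6% of all genes that rose in EED-/- cells, SUZ12-/- cells and the double knockout. Of 12 genes of proenzyme activation and the plasminogen system, 6, 7 and 5 rose in EED-/- cells, SUZ12-/- cells and the double knockout and none fell, with median log2 differences of 1.57, 2.18 and 1.53. The protease inhibitor SERPINE2 was at 58.8 ± 4.29 TPM (SD, n = 2) in WT H1, 2178 ± 846 in EED-/-, 519 ± 12.1 in SUZ12-/- and 1508 ± 545 in the double knockout. The proprotein convertase FURIN, which activates MMP14, MMP11 and ADAMTS proenzymes, was at 17.2 ± 2.14 TPM (SD, n = 2) in WT H1, 141 ± 8.72 in EED-/-, 105 ± 2.27 in SUZ12-/- and 116 ± 64.4 in the double knockout. Both rose in each PRC2-null line.

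Of 6 other inhibitors and regulators, 3, 3 and 4 rose, with medians of 1.87, 2.37 and 1.71. A2M, the plasma protein that traps proteases, was at 0.32 ± 0.41 TPM (SD, n = 2) in WT H1, 62.9 ± 36.6 in EED-/-, 316 ± 2.25 in SUZ12-/- and 39.9 ± 19.1 in the double knockout. The Kunitz inhibitor TFPI2 was at 12.9 ± 2.26 TPM (SD, n = 2) in WT H1, 332 ± 16.1 in EED-/-, 161 ± 1.52 in SUZ12-/- and 311 ± 92.5 in the double knockout. Of 7 ADAMTS-like genes, which carry ADAMTS domains without the protease, 3, 5 and 2 rose, with medians of 1.43, 2.06 and 0.41. ADAMTSL5 was at 0.48 ± 0.33 TPM (SD, n = 2) in WT H1, 6.38 ± 2.84 in EED-/-, 16.1 ± 0.76 in SUZ12-/- and 5.51 ± 1.72 in the double knockout, and ADAMTSL2 at 0.87 ± 0.57 TPM (SD, n = 2) in WT H1, 19.5 ± 16.8 in EED-/-, 6.62 ± 1.26 in SUZ12-/- and 9.73 ± 0.37 in the double knockout.

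Of 13 ADAM sheddases and astacins, 6, 6 and 6 rose, with medians of 1.58, 1.30 and 1.19. These were not all the same genes, since ADAM19 was not called in SUZ12-/- H1 and ADAM33 was called only there. The procollagen C-proteinase BMP1 was at 2.69 ± 0.97 TPM (SD, n = 2) in WT H1, 182 ± 65.6 in EED-/-, 57.3 ± 1.37 in SUZ12-/- and 103 ± 4.55 in the double knockout. ADAM12, known from mesenchyme and forming muscle, was at 0.18 ± 0.03 TPM (SD, n = 2) in WT H1, 36.6 ± 26.4 in EED-/-, 66.4 ± 2.86 in SUZ12-/- and 6.89 ± 2.298 in the double knockout. The sheddase ADAM9 was at 13.8 ± 1.27 TPM (SD, n = 2) in WT H1, 188 ± 2.77 in EED-/-, 103 ± 1.05 in SUZ12-/- and 86.98 ± 61.8 in the double knockout. Of 11 matrix substrates, 8, 8 and 7 rose and NCAN fell in SUZ12-/- H1, with medians of 5.86, 4.76 and 4.83. COL3A1, a fibrillar collagen and also a mesenchyme marker above, was at 0.17 ± 0.08 TPM (SD, n = 2) in WT H1, 1972 ± 139 in EED-/-, 11167 ± 158 in SUZ12-/- and 1867 ± 1282 in the double knockout. FN1 (fibronectin) was at 55.4 ± 6.99 TPM (SD, n = 2) in WT H1, 11395 ± 80.999 in EED-/-, 4353 ± 40.9 in SUZ12-/- and 8168 ± 3921 in the double knockout, and COL5A1 at 5.08 ± 1.46 TPM (SD, n = 2) in WT H1, 1165 ± 600.4 in EED-/-, 683 ± 6.17 in SUZ12-/- and 489.6 ± 288 in the double knockout. Of 5 family genes outside the 41, 2 passed the filter and MMP23B rose in all 3 lines. It was at 7.11 ± 3.28 TPM (SD, n = 2) in WT H1, 127 ± 26.7 in EED-/-, 82.2 ± 0.52 in SUZ12-/- and 113 ± 15.9 in the double knockout. In EZH1-/- and EZH2-/- H1 no gene of the 6 lists was called by limma, beside the background of 0.0576%, 0.0419% and 0.0% given above.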

How the data were processed

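RNA from 19 H1 hESC samples, 12 of knockout and WT lines and 7 of the H1-EED-/-/EED-OE line, had been sequenced on an Illumina NextSeq after TruSeq library preparation, which does not mark strand. The authors aligned reads with Bowtie2 to a GRCh38/hg38 mRNA reference and estimated abundance with RSEM, and the processing notes also list hg19. The authors deposited TPM for 33382 genes per sample, with no counts, and 0 columns of the files were left unused. TPM keeps no read depth, so that no counting interval can be given. Groups came from the genotype, treatment and time labels.

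Values were taken as log2(TPM + 1) and tested with limma 3.58.1 in R 4.3.3 (1 fit over the 12 line samples, 6 residual degrees of freedom, eBayes with trend and robust) for 19100 genes with at least 1 TPM in at least 2 samples. The study tested counts with another tool, and its limits (FDR of 1% by Benjamini-Hochberg and a fold of 3) were kept. The time course had 1 sample per point and was not tested. All tests are two-sided. The script was tested on simulated data. Tables were handled with Python 3.11.15, pandas 2.3.3 and numpy 2.4.6, and figures drawn with matplotlib 3.10.9.

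The genes and lists were chosen with earlier results of these data known. Named in full were genes called in at least 1 comparison with WT H1 and every TIMP. From the further lists at most 3 genes called in all 3 PRC2-null lines were named, by largest mean fold. Values of 2 genes of these and the marker lists are not reported here. Protein sequences were not analysed here, and 19 of the 41 genes had no promoter window at hand. Alternatives were another pseudocount (0.1), no filter, median-ratio scaling, plain eBayes, a replicate block, each line with WT H1 alone, an FDR of 5% without a fold, a fold of 2, WT H1 as reference of the time course, and leaving out each sample. Replicate numbers were given in label or accession order and do not pair samples.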

Additional observations from a re-analysis of the deposited data

Results flagged for a closer look

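Between PRC2-null lines, 13 differences were called by a direct limma test. They are given on the log2 scale and had an adjusted p of at most 1% and a fold of at least 3. Between SUZ12-/- H1 and EED-/- H1 the difference was -3.55 for MMP24, -3.30 for MMP1, -3.10 for MMP12, -2.72 for ADAMTS16, -1.96 for MMP15, -1.90 for MMP11, -1.90 for MMP14, -1.87 for MMP10, -1.75 for TIMP2 and -1.66 for MMP2, all lower in SUZ12-/- H1. ADAMTS15 went the other way, at 3.41 higher in SUZ12-/- H1 than in EED-/- H1 and 3.30 higher than in EZH2-/-/EZH1-/- H1. ADAMTS17 was lower in SUZ12-/- H1 than in EZH2-/-/EZH1-/- H1, by -1.61 on the same scale. For MMP24 the differences to WT H1 had opposite signs, 2.07 in EED-/- H1 and -1.48 in SUZ12-/- H1, the latter not called. No group had the 4 samples needed to look for a sample far from the others.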

How the results depend on the processing

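Of 102 calls of single genes over all comparisons, 70 held under every alternative. The 102 calls gave 1800 values under the alternatives, of which 1685 stayed past the threshold, 115 did not and 0 changed direction. With the replicate block all 102 calls held, and the count between EZH2-/-/EZH1-/- H1 and EED-/- H1 went from 0 to 1. Same-numbered samples did not deviate together (mean r = -0.003, from -0.121 to 0.218 over 15 pairs), so that the block has no design behind it. Median-ratio scaling also gave 1 call there, and an FDR of 5% without a fold gave 5. That FDR gave 17 instead of 11 calls between SUZ12-/- and EED-/- H1, and 10 instead of 2 between SUZ12-/- and EZH2-/-/EZH1-/- H1, where a pseudocount of 0.1 gave 1. In the fit of EZH2-/-/EZH1-/- H1 with WT H1 alone, 9 genes were called instead of 22. Such fits gave 23 instead of 25 calls for EED-/- H1 and the same 19 for SUZ12-/- H1. The calls lost in EZH2-/-/EZH1-/- H1 were those of MMP10, MMP15, MMP17, MMP25, MMP28, TIMP4, ADAMTS1, ADAMTS4, ADAMTS6, ADAMTS12, ADAMTS16, ADAMTS17 and ADAMTS18 (adjusted p = 0.0109 to 0.0848). Leaving out 1 sample at a time gave 21 to 26 calls for EED-/- H1, 16 to 19 for SUZ12-/- H1, 16 to 23 for EZH2-/-/EZH1-/- H1, 21 to 23 for the PRC2-null lines together, 5 to 11 between SUZ12-/- and EED-/- H1, 0 to 5 between EZH2-/-/EZH1-/- and EED-/- H1, and 1 to 5 between SUZ12-/- and EZH2-/-/EZH1-/- H1. The single sample left in a line is then assumed to vary like the other lines. In the time course, a pseudocount of 0.1 gave 3 genes at day 8, 3 at day 12 and 9 at day 16, and a fold of 2 gave 2, 4, 10 and 19 at days 8, 12, 16 and 20, against 1, 1, 5 and 12 as reported. WT H1 as reference gave 0 at day 12, and scaling gave 2 at day 16. The cause of a change was not tested. With 2 samples per line and TPM without depth, the error of low genes rests on the spread between samples alone, and the time course has no error estimate.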

Other observations

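TIMP1 and TIMP3 lie inside synapsin genes on the opposite strand, with no shared exon bases. SYN1, which holds TIMP1, was at 3.13 to 9.71 TPM in the PRC2-retaining and 0.66 to 1.73 TPM in the PRC2-null samples, and SYN3, which holds TIMP3, was at 5.86 to 13.5 and 0.1 to 1.2 TPM. In these 12 samples the ranges of the 2 host genes did not overlap. Over the time course SYN1 was at 4.31 to 20.28 TPM and SYN3 at 0 to 13.1 TPM, given as ranges over the 7 samples and not by day. A link between the levels of host genes and TIMPs was not tested. SYN2, which shares exon bases with TIMP4, was at 3.04 to 5.21 TPM in the PRC2-retaining and 1.7 to 5.1 TPM in the PRC2-null samples, and its ranges overlapped.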
